A study of Rattus norvegicus with 69 samples.

Results

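The 54 genes described here encode dynein chains, the factors that assemble dynein arms, and the subunits of intraflagellar transport and the BBSome. They were all genes whose single symbol on the array's platform table begins with Dnah, Dnai, Dnal, Dnaaf, Dync, Dynl, Ift or Bbs, and they came from 14217 genes with a single symbol. They were represented by 71 probe sets, and for the 14 genes with several probe sets the one with the highest mean over all samples was used. Another 3 probe sets assigned to several genes, among them those shared by Dynll1 and Dnal4 with their copies, were left out. The RNA of 69 samples of Sprague Dawley rats had been hybridised to Affymetrix arrays, 1 array per sample. They were 5 samples of whole testis, for which the labels give no age, 49 of seminiferous tubules dissected under transillumination into 10 stage groups, and 15 of isolated cells. The tubule samples each pooled 25 segments per rat from 2 rats aged 55 to 60 days, with 5 samples per stage group and 4, numbered 2 to 5, for stage IV-V. The samples called IX-XI here were titled so, while their source names gave IX-XII, which the labels do not settle. Among the isolated cells were 4 Sertoli cell samples (about 85% pure per the labels), 4 of round spermatids and 4 of pachytene spermatocytes, all from rats aged 55 to 60 days, and, at 18 to 20 days of age, 3 of spermatogonia plus early spermatocytes. The labels put the purity of the germ cells, obtained by elutriation, at 85% to 95%. No rat carried a mutation or had been treated, as far as the labels say.

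Axonemal dyneins are the motors that bend cilia and sperm tails, and dynein arm assembly factors build them in the cytoplasm before they enter the axoneme. Cytoplasmic dynein 1 carries cargo toward microtubule minus ends throughout the cell, whereas cytoplasmic dynein 2 moves intraflagellar transport trains back from the tip of a cilium; the IFT-B complex serves mainly the outward and the IFT-A complex the return direction, and the BBSome rides on the trains to carry membrane proteins. In the testis, the axoneme begins to grow from the centriole of the young round spermatid. Round spermatids lie in tubules of stages I to VIII and elongate from there on, and pachytene spermatocytes accompany them through most of the cycle.

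Values are the array signal, on a linear scale with each array scaled by the authors to a 2% trimmed mean of 100, and are comparable for 1 probe set between samples but not between probe sets. A gene was called changed at an adjusted p under 0.05 with at least a 2-fold difference in limma. The fit was on log2(signal + 5.11), over all probe sets above the low signal filter. The added constant makes fold changes of weak signals smaller than the ratio of the signals. Folds, and the highest and lowest stages, were taken from means of log2 values. Folds over the mean of several groups can therefore also exceed the ratio of mean signals. All 54 genes passed the low signal filter in every comparison. Array medians were 30.9 to 58.2, lowest in Sertoli cells (30.9 to 32.1) and highest in spermatogonia plus early spermatocytes (43.7 to 58.2). Of 8 Sertoli cell markers 6 were measured, with sums of 10666 to 15497 in Sertoli cells, against 2266 to 3452 in spermatogonia plus early spermatocytes and 302 to 464 in round spermatids. The summed signal of 6 elongating spermatid markers was 1462 to 6295 in Sertoli cells and 57.1 to 102 in spermatogonia plus early spermatocytes. It was 8496 to 12746 in pachytene spermatocytes and 20946 to 26140 in round spermatids. Round spermatid marker sums were 1620 to 2426 in pachytene spermatocytes and 7747 to 8086 in round spermatids. Pachytene spermatocyte marker sums were 12358 to 19598 and 14783 to 15724, in the same order. Of Leydig cell markers, all 6 were above the table's median in both, with sums of 4845 to 6325 in Sertoli cells and 6379 to 9755 in spermatogonia plus early spermatocytes, while the sum was 240.3 to 294 in round spermatids. Macrophage marker sums were 1708 to 1891 in spermatogonia plus early spermatocytes and 327 to 349 in Sertoli cells, against 131 to 190.4 in pachytene spermatocytes. In Sertoli cells, the sums were 1934 to 4497 for peritubular myoid and 485 to 1365 for endothelial cell markers, against 186 to 254 and 62.3 to 77.1 in pachytene spermatocytes. Of 7 markers fixed for spermatogonia and early spermatocytes, 4 were measured, and 3 were above the table's median in that preparation. The sum of the measured ones was 413 to 509.8 there, 328 to 380 in Sertoli cells and 103 to 126 in pachytene spermatocytes. The part of these other cells in the results below was not tested.

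**Figure D1:**
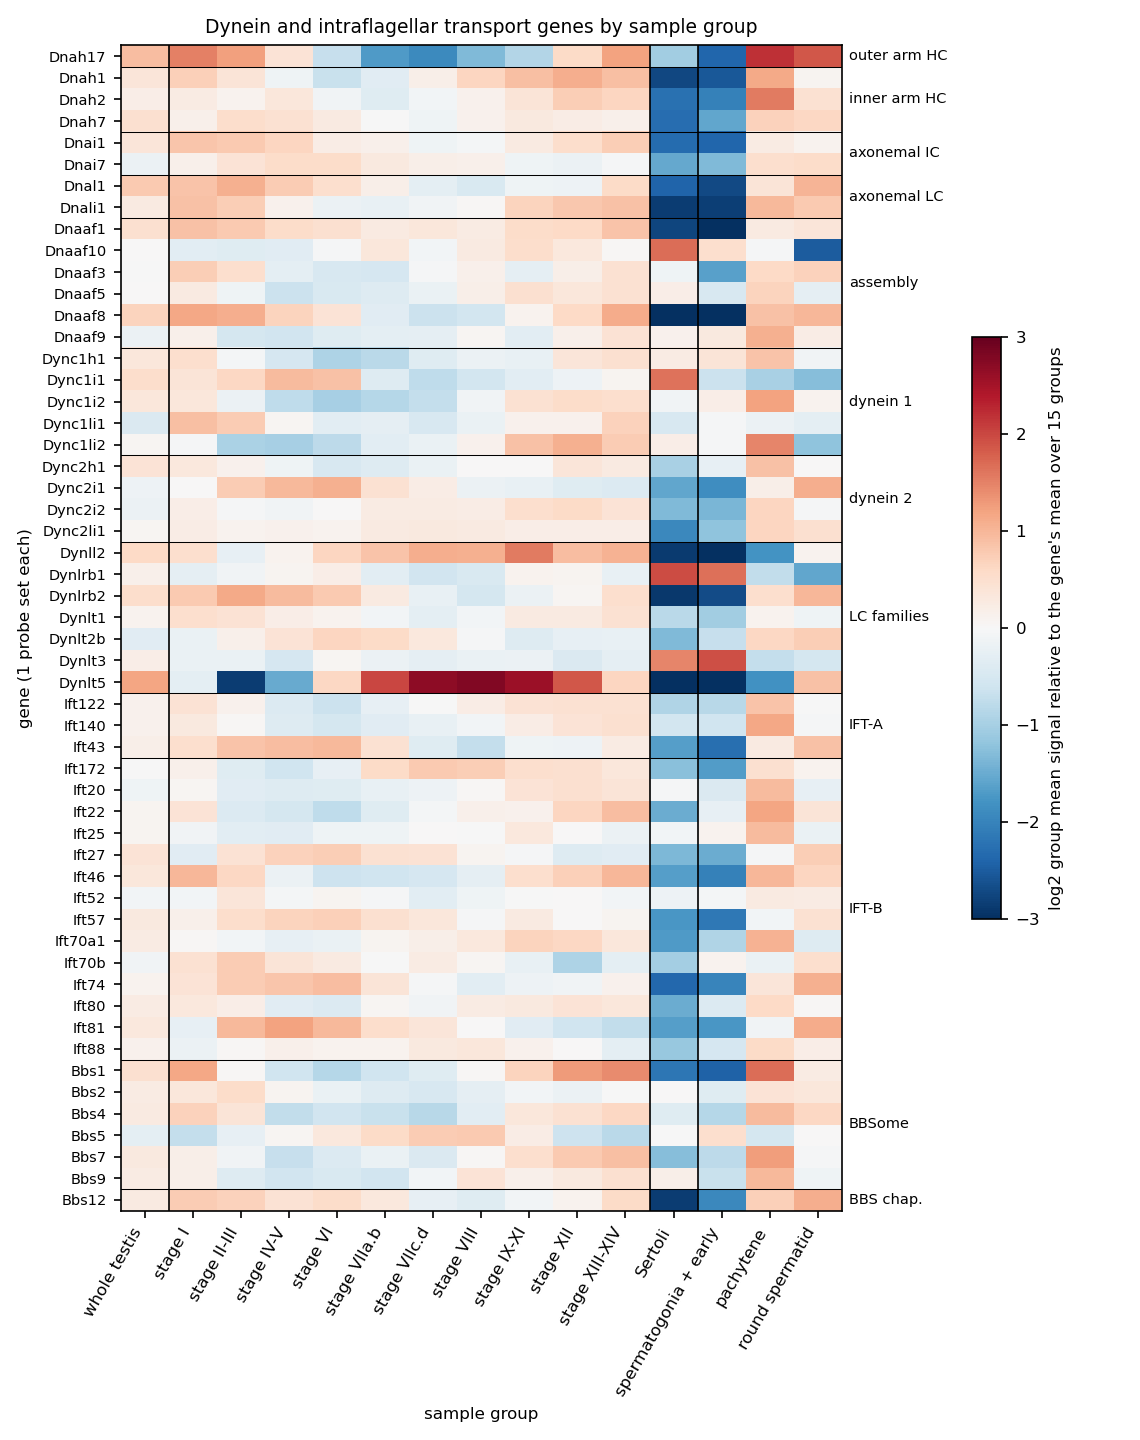
Group means of log2(signal + 5.11) for each of the 54 genes (rows, ordered by role) relative to the gene's own mean over the 15 sample groups, in whole testis, the 10 tubule stage groups and the isolated cells (columns); red is above and blue below the gene's mean. Most axonemal dynein, IFT and BBS rows are blue in Sertoli cells and in the early germ cells, while Dync1i1, Dnaaf10, Dynlrb1 and Dynlt3 are red in Sertoli cells.

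The promoters of these genes were searched for the letters of motifs bound by regulators of ciliary genes. RefSeq's promoter table (rat assembly GRCr8, 250 bases before to 50 after the gene's start) held 45 of the 54 genes. The core GTTGCC of the motif bound by RFX factors, on either strand, was found in 11 of these 45 promoters (24.4%), against 12.2% of all 33469 promoters in the table. In the 100 bases before the start it was found in 6 of 45 (13.3%), against 4.51% of all. A full X-box, searched as GTTNCC followed after 0 to 3 letters by GGNAAC on either strand, was in 0 of 45 and in 0.902% of all, and the CRE core TGACGT was in 4 of 45 (8.89%), against 7.94% of all. The X-box pattern was matched exactly, so sites that differ from it by a letter were not counted. With no match to it, 4 of the 6 promoters with GTTGCC near the start are shown. They were chosen after the search because their genes, described below, ran through the cycle in different ways. Each is the 100 bases before the start, 5′ to 3′ on the gene's strand. GTTGCC or its reverse complement GGCAAC is in capitals.
Dnah2 (chr10:54766027-54766126, minus strand): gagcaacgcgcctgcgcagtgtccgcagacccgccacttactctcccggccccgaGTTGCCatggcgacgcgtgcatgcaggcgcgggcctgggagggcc
Dync2li1 (chr6:15778167-15778266, minus strand): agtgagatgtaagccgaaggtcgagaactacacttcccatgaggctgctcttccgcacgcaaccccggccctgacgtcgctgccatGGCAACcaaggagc
Dynlt2b (chr11:81872556-81872655, minus strand): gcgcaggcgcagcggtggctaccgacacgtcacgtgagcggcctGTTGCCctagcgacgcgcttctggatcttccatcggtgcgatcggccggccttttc
Ift81 (chr12:39618522-39618621, plus strand): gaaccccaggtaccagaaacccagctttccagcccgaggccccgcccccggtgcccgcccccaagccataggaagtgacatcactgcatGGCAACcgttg
The match is a description of letters and shows neither binding nor control. Among these genes, Dnah2 was highest at stage XII, Ift81 at stage IV-V and Dynlt2b at stage VI, and Dync2li1 did not pass the test for variation over the cycle.

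Over the cycle of the seminiferous epithelium, 36 of the 54 genes were stage-regulated, that is, varied between the 10 stage groups by limma's F-test and had a highest stage mean at least 2-fold over the lowest. Of all 22258 probe sets tested, 32.5% were, and of all genes with 1 probe set per gene chosen in the same way 37.9%. At 4-fold the count was 4 genes, and 8.81% of all probe sets. On the F-test alone 52 of 54 passed (54.3% of all probe sets), and Dynlt3 (adjusted p = 0.795) and Dync2li1 (adjusted p = 0.0999) did not. The median ratio of highest to lowest stage was 1.12 on the log2 scale over the 54 genes and 0.89 over all tested probe sets. In all 36 genes, every sample of the highest stage lay above every sample of the lowest. Genes and stages were picked on these same samples, which favours such separation, and its share over all probe sets was not counted. The highest stage was XII, XIII-XIV or I in 20 of the 36 genes, against 29.8% of all stage-regulated probe sets. It was II-III to VI in 11 genes (30.0% of all stage-regulated probe sets), VIIa.b to VIII in 3 (27.5%) and IX-XI in 2 (12.7%). In bulk tubules, fewer cells of a type and less RNA per cell cannot be told apart. The summed signal of 5 measured round spermatid markers was 10776 to 11520.4 at stage VI and 1129 to 1687 at stage IX-XI, and that of 6 pachytene spermatocyte markers was 18306 to 24592 at stage I and 10614 to 15928 at stage VIII; their part in the stage profiles was not tested.

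Among the axonemal dyneins, the outer arm heavy chain Dnah17, a motor subunit of the sperm tail, was stage-regulated, as were the inner arm heavy chains Dnah1 and Dnah2 but not Dnah7 (1.58-fold between stages). Dnah17 had signals of 96.03, 173, 101, 66.4 and 103 in the stage I samples, against 11.1, 2.93, 3.26, 4.98 and 5.50 in the stage VIIc.d samples. Every stage I sample was above every stage VIIc.d sample, a 10.5-fold difference (log2 3.39, limma adjusted p = 3.27e-12), and the lower stage was near the table's 10th percentile. The log2 difference was 4.11 with log2(signal + 1) and 2.48 with log2(signal + 16). Dnah1 averaged 573 ± 88.2 at stage XII and 165 ± 28.1 at stage VI (SD, n = 5 each), a 3.40-fold difference (limma adjusted p = 6.66e-22). Dnah2 averaged 359.6 ± 68.2 at stage XII and 162 ± 18.1 at stage VIIa.b (SD, n = 5 each). The light chains Dnal1, of the outer arm, and Dnali1, of the inner arm, were both stage-regulated, with their highest means at stages II-III (436 ± 31.4) and XIII-XIV (726 ± 59.4; SD, n = 5 each). Neither call was made on the second probe set, with limma adjusted p = 0.379 for Dnal1 and 0.665 for Dnali1, and the remaining probe set of Dnal1 was stage-regulated with its highest mean at stage XIII-XIV. The intermediate chains Dnai1, of the outer arm, and Dnai7 passed the F-test but missed 2-fold, at 1.94-fold and 1.68-fold. Without the stage I sample numbered 1, at 319 against 517 to 590 in the others, Dnai1 passed, at a log2 difference of 1.11, and without the stage VIIc.d sample numbered 3 it was 1.06.

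Of the 6 dynein arm assembly factors, Dnaaf3, Dnaaf5, Dnaaf8 and Dnaaf9 were stage-regulated. Dnaaf8 had signals of 1485, 1414, 1549, 1718 and 1437 at stage I, against 419, 495, 532, 375 and 361 at stage VIIc.d, with no overlap. It was high from stage XIII-XIV through II-III and low from VIIa.b to VIII, a 3.49-fold range (limma adjusted p = 5.32e-27). Dnaaf1, which takes part in the preassembly of outer and inner arms, varied 1.55-fold, between 6105 ± 770.3 at stage I and 3916 ± 304 at stage VIII (SD, n = 5 each), and so was not called. Dnaaf5 was highest at stage IX-XI. Dnaaf9 was highest at stage XIII-XIV on the chosen probe set and at stage VIII on its second one, which was stage-regulated too.

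All 5 chains of cytoplasmic dynein 1 were stage-regulated. The light intermediate chain Dync1li2 had signals of 729, 749.8, 740.1, 781 and 754 at stage XII, against 149.7, 171, 179 and 199 at stage IV-V. The stage XII samples all lay above those of stage IV-V, 4.23-fold on average (log2 2.08, limma adjusted p = 1.15e-24). The heavy chain Dync1h1, the motor subunit, averaged 953 ± 103 at stage I and 353 ± 50.7 at stage VI (SD, n = 5 each). The intermediate chains, which link the motor to cargo adaptors, had different profiles. Dync1i2 averaged 659 ± 38.02 at stage XII and 225 ± 37.6 at stage VI (SD, n = 5 each), 2.92-fold. Dync1i1 averaged 125 ± 10.6 at stage IV-V (SD, n = 4) and 35.1 ± 17.5 at stage VIIc.d (SD, n = 5), 3.46-fold. Stages IV-V and VI were thus among the highest for Dync1i1 and the lowest for Dync1i2. Of the 4 chains of cytoplasmic dynein 2, only the intermediate chain Dync2i1 was called, with 1344 ± 66.5 at stage VI and 476 ± 29.5 at stage XIII-XIV (SD, n = 5 each). The light intermediate chain Dync2li1 varied least, with stage means between 922 and 1057.

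The light chain families are shared between dyneins and other complexes, and 4 of 7 genes were stage-regulated. Dynlt5, of the Tctex family, had the largest range of the 54 genes. Its signals were 1151, 1484, 1397, 1462 and 1539 at stage VIII, against 62.6, 30.5, 9.45, 6.25 and 9.38 at stage II-III. The stage VIII samples were all far above those of stage II-III, 62.4-fold (log2 5.96, limma adjusted p = 5.94e-25), and the means climbed through 315 at stage VI, 819 at VIIa.b and 1333 at VIIc.d, with 318 at XIII-XIV. With log2(signal + 16) the log2 difference was 5.34. The related Dynlt2b was highest at stage VI (623 ± 73.9) and lowest at IX-XI (304 ± 34.9; SD, n = 5 each), 2.03-fold. It sat close to the threshold, at a log2 difference of 1.02, and it missed 2-fold without the stage VI samples numbered 1 or 2 (0.98 and 0.99) or the stage IX-XI samples numbered 3 or 4 (0.98 each). Dynlt1 varied 1.72-fold and Dynlt3 1.47-fold, without a call. Of the roadblock chains, Dynlrb2 averaged 2415 ± 267 at stage II-III and 760.2 ± 63.04 at stage VIII (SD, n = 5 each), 3.16-fold (limma adjusted p = 9.32e-27), while Dynlrb1 varied 1.77-fold and was not called. Dynll2, of the LC8 family, had signals of 7965, 10541, 10910.1, 6353 and 7362 at stage IX-XI, against 2219.9, 2373, 2206, 3318 and 2340.1 at stage II-III, with no overlap and a 3.43-fold difference. Its other probe set went the opposite way, averaging 215 ± 26.7 at stage IX-XI and 349.6 ± 41.3 at stage II-III (SD, n = 5 each), a log2 difference of -0.69, so that the direction for Dynll2 rests on the probe set chosen.

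**Figure D2:**
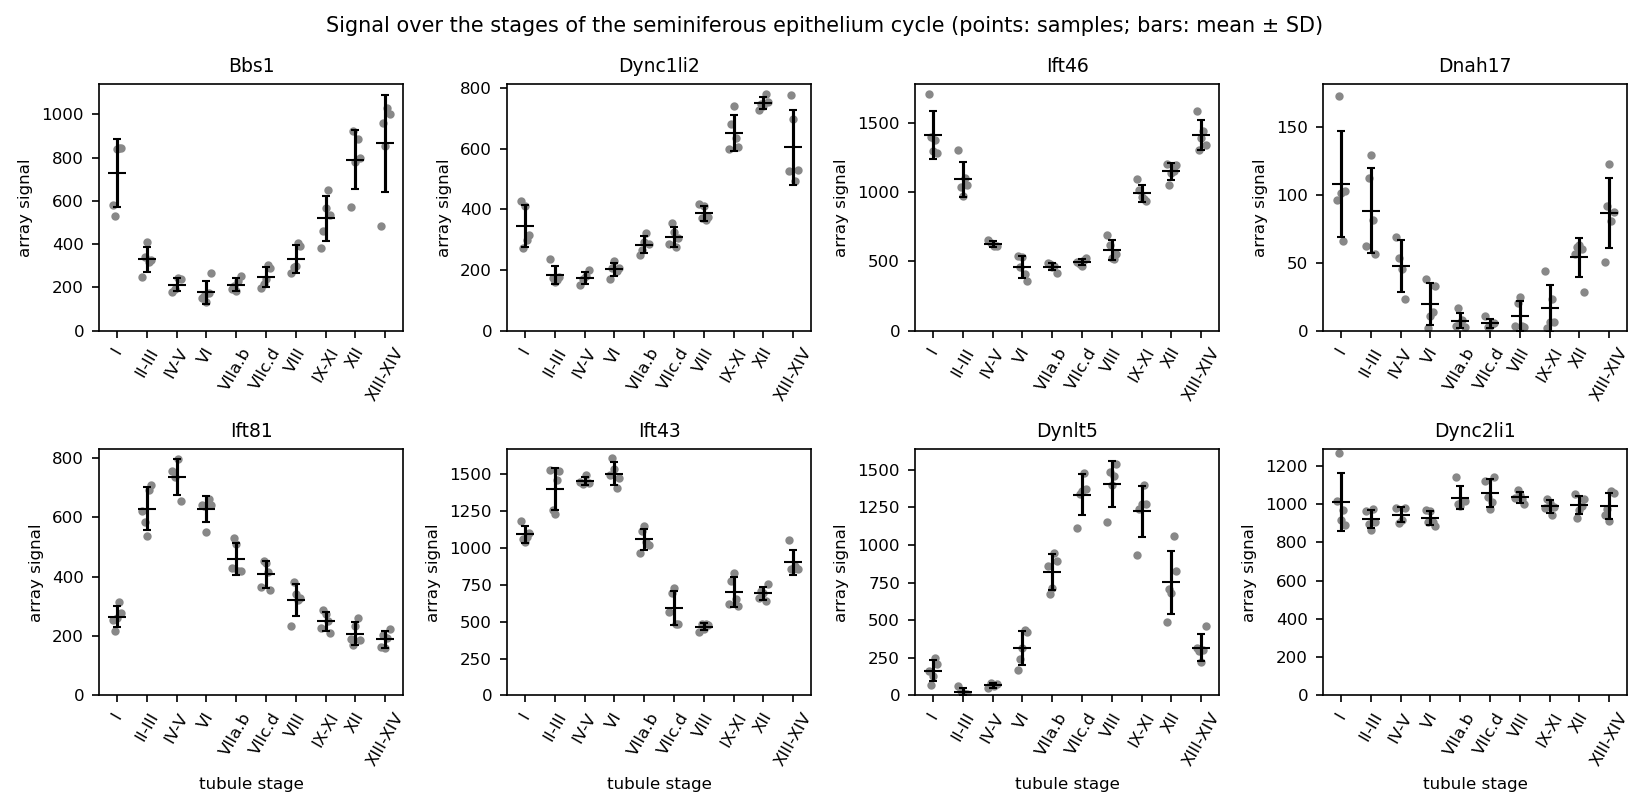
Array signal (vertical axes, from 0) over the 10 tubule stage groups (horizontal axes) for 8 genes; points are samples and black bars the mean ± SD of 5 samples, or 4 for stage IV-V. Bbs1, Dync1li2, Ift46 and Dnah17 are high around stages XII to I, Ift81 and Ift43 around II-III to VI, Dynlt5 from VIIc.d to IX-XI, and Dync2li1 stays between 922 and 1057 in its stage means.

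All 3 IFT-A subunits were stage-regulated on the chosen probe sets, with different highest stages, though the second probe set of Ift122 missed 2-fold (1.76-fold). Ift43 had signals of 1497, 1609, 1532, 1404 and 1476 at stage VI, against 432, 484, 449, 481 and 478 at stage VIII, 3.21-fold with no overlap (limma adjusted p = 2.58e-24). Ift122 was highest at stage XII (865 ± 64.1) and Ift140 at stage XIII-XIV (469 ± 64.4), and both were lowest at stage VI (399.7 ± 66.6 for Ift122 and 232 ± 48.2 for Ift140; SD, n = 5 each), where Ift43 was highest. Of the 14 IFT-B subunits, 7 were called. Ift81 and Ift74, which together bind tubulin as cargo, were highest at stages IV-V and VI. Ift81 had signals of 754, 734, 796 and 653 at stage IV-V, against 161, 204, 158, 194 and 225 at stage XIII-XIV, 3.84-fold (limma adjusted p = 1.66e-22). The groups did not overlap, and stages II-III to VI held the highest means on the chosen probe set. The second probe set of Ift81 was stage-regulated too but highest at stage VIIc.d, and the remaining one was highest at stage IV-V. Ift74 averaged 1439 ± 213 at stage VI and 606 ± 48.5 at stage VIII (SD, n = 5 each), 2.35-fold. Ift46 ran the other way, with 1589, 1304, 1393, 1439 and 1341 at stage XIII-XIV, against 542, 461, 530.1, 408 and 355 at stage VI, 3.09-fold (limma adjusted p = 7.78e-27). The mean signal of Ift46 was level at stage I (1414 ± 173) and stage XIII-XIV (1413 ± 111; SD, n = 5 each). Stage XIII-XIV was the highest on the mean of log2 values. Ift22 was also highest at stage XIII-XIV (3.34-fold, under 2-fold on its second probe set at a log2 difference of 0.64), Ift27 at stage VI (2.19-fold), Ift172 at stage VIIc.d (2.60-fold) and Ift70b at stage II-III (3.56-fold, at a low signal of 56.9 ± 10.7, against 14.1 ± 8.83 at stage XII). The other 7 passed the F-test with ranges of 1.77 (Ift80), 1.56 (Ift88), 1.58 (Ift25), 1.59 (Ift52), 1.69 (Ift57), 1.80 (Ift20) and 1.89 (Ift70a1).

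All 6 BBSome subunits were stage-regulated. Bbs1, the subunit that binds the small GTPase recruiting the complex to membranes, had signals of 484, 961, 855, 1031 and 999.7 at stage XIII-XIV, against 150.3, 159.6, 134, 173 and 264 at stage VI. The stage XIII-XIV samples all lay higher, 4.77-fold on average (log2 2.25, limma adjusted p = 6.9e-19), and one of them, numbered 1, was well below the others. Bbs7 averaged 257 ± 45.9 at stage XIII-XIV (SD, n = 5) and 82.1 ± 24.4 at stage IV-V (SD, n = 4), 3.06-fold. Bbs9 (2.11-fold) was highest at stage XIII-XIV too, Bbs4 (2.86-fold) at stage I and Bbs2 (2.04-fold) at stage II-III. Bbs5 departed from these, with 169 ± 20.9 at stage VIII and 52.6 ± 6.63 at stage XIII-XIV (SD, n = 5 each), 3.02-fold. Bbs12, a chaperonin-like protein needed to assemble the BBSome, averaged 136 ± 28.2 at stage I and 59.9 ± 11.8 at stage VIII (SD, n = 5 each), 2.17-fold, and just missed 2-fold with log2(signal + 16).

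Likeness between stage profiles was described by Pearson's correlation over the 10 stage means, without a test, since the points share their samples. The most alike pairs were Dnali1 with Ift46 (r = 0.994), Bbs1 with Ift140 (r = 0.988) and Dync1li2 with Ift20 (r = 0.986). The most opposed pair was Dnai7 with Dync1li2 (r = -0.977), and the median over all 1431 pairs was 0.15. Dynlt5 and the chosen probe set of Dynll2 had r = 0.92.

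Most of the 54 genes were higher in pachytene spermatocytes than in the early germ cells, which included early spermatocytes. In pachytene spermatocytes against spermatogonia plus early spermatocytes, 42 genes were higher, where 18.5% of 20253 probe sets tested were higher, and 2 were lower, where 28.6% were lower. With 1 probe set per gene, the shares over all genes were 21.3% and 28.3%. The median log2 change was 1.77 over the 54 genes and -0.15 over all tested probe sets. All 44 called genes had groups that did not overlap, which the call itself favours, and the share over all called probe sets was not counted. The early germ cell sample numbered 3 stood apart, with an array median of 58.2 (43.7 and 46.8 in the others) and an actin 3' to 5' ratio of 3.64 (1.54 and 1.88 in the others), and without it 41 genes were higher and 3 lower. The early cells came from younger rats, so that age and cell type cannot be told apart here.

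The 8 axonemal dynein chains were all higher in pachytene spermatocytes. Dnah17 had signals of 130.5, 199.5, 195 and 183 in pachytene spermatocytes, against 0.866, 2.29 and 4.33 in spermatogonia plus early spermatocytes, a log2 change of 4.59 ± 0.30 SE (limma adjusted p = 1.6e-10). The early-cell signals were below the constant added before the log, and the log2 change was 5.78 with log2(signal + 1) and 3.37 with log2(signal + 16). Dnah1 rose 13.1-fold, Dnah2 12.05-fold, Dnah7 4.80-fold, Dnali1 14.2-fold, Dnal1 8.50-fold, Dnai1 6.22-fold and Dnai7 3.64-fold. Of the assembly factors, 4 of 6 were higher. Dnaaf1 had 4303, 2981, 3600.4 and 5172 in pachytene spermatocytes, against 213, 180.4 and 249 in the early cells, 18.1-fold (limma adjusted p = 6.6e-14). Dnaaf8 had 1333, 1083, 1169 and 1452 in pachytene spermatocytes, against 78.1, 70.3 and 81.97 in the early cells, 15.4-fold (limma adjusted p = 9.29e-15). Dnaaf3 and Dnaaf5 were 4.70 and 2.23-fold higher, and Dnaaf9 (1.72-fold) and Dnaaf10 (0.727-fold) were not called.

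All 4 cytoplasmic dynein 2 chains were higher in pachytene spermatocytes, from 2.15-fold for the heavy chain Dync2h1 to 4.23-fold for Dync2i1. Of the 5 dynein 1 chains only Dync1li2 (2.83-fold) and Dync1i2 (2.02-fold) were called. For Dync1i2 the call rested on single samples, since the log2 change of 1.01 became 0.97 and 0.96 without the pachytene samples numbered 1 or 4 and 0.97 without the early sample numbered 3. All 3 IFT-A and 11 of 14 IFT-B subunits were higher, with Ift46 (8.18-fold), Ift43 (5.77-fold) and Ift74 (5.03-fold) among them, and Ift25, Ift52 and Ift70b were not called. Of the BBSome, Bbs1, Bbs4, Bbs7 and Bbs9 were higher. Bbs1 had 1008, 1071, 1050.3 and 1043 in pachytene spermatocytes, against 71.1, 51.3 and 45.99 in the early cells, 17.4-fold (log2 4.12 ± 0.17 SE, limma adjusted p = 2.37e-13). Bbs2 (1.73-fold) and Bbs5 (0.509-fold) were not called, and Bbs12 was 7.89-fold higher.

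The light chains held the only genes that were called lower in pachytene spermatocytes. Dynlrb2 had 1643, 1314, 1505 and 1746 in pachytene spermatocytes, against 163, 126 and 211 in the early cells, 9.21-fold higher (limma adjusted p = 5.65e-13). Its paralog Dynlrb1 had 93.2, 93.9, 93.8 and 95.8 in pachytene spermatocytes, against 519, 497 and 542 in the early cells, 5.28-fold lower (limma adjusted p = 2.71e-12). In both roadblock genes the samples of the groups were apart, in opposite directions. Among the Tctex genes, Dynlt3 had 24.6, 23.3, 35.5 and 13.5 in pachytene spermatocytes, against 166, 189 and 180.0 in the early cells, 6.48-fold lower (limma adjusted p = 4.7e-09). Dynlt5 (8.58-fold), Dynlt2b (2.50-fold) and Dynlt1 (2.23-fold) were higher, but Dynlt1 was not called with quantile normalization (log2 0.75). The early-cell signals of Dynlt5, 0.766, 0.702 and 3.31, were below the constant added before the log, and its log2 change was 4.48 with log2(signal + 1) and 1.95 with log2(signal + 16). Dynll2 was 3.41-fold higher on the chosen probe set, and its other probe set went the opposite way, with 76.5, 67.9, 49.5 and 51.5 in pachytene spermatocytes, against 628, 601 and 498 in the early cells (log2 -3.14).

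Past meiosis the genes went in both directions. In round spermatids against pachytene spermatocytes, 3 genes were higher, where 8.9% of all probe sets were higher, and 12 were lower, where 13.1% were lower. With 1 probe set per gene the shares over all genes were 11.1% and 12.5%. None of the 15 genes had overlapping groups, but the call favours this, and the share over all called probe sets was not counted. The median log2 change was -0.26 over the 54 genes and -0.06 over all tested probe sets. For GAPDH, the 3' control probe set was 1.75 to 2.44 times the 5' one in round spermatids and 1.07 to 1.51 times in pachytene spermatocytes, and for actin 1.77 to 1.99 times in round spermatids and 2.02 to 2.56 times in pachytene spermatocytes, whose part in the result was not tested. The pachytene samples are the same as in the comparison with early germ cells.

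The genes that were higher in round spermatids were Dynlt5, Dynll2 and Ift81. Dynlt5 had 299, 436, 409 and 350.3 in round spermatids, against 33.00, 48.5, 67.4 and 64.4 in pachytene spermatocytes, 6.62-fold (log2 2.73 ± 0.36 SE, limma adjusted p = 4.82e-06). Dynll2 had 3115, 3588, 3017 and 3008 in round spermatids, against 847, 774, 964 and 780.0 in pachytene spermatocytes, 3.77-fold (limma adjusted p = 8.33e-09). Here both probe sets of Dynll2 went the same way, the other one averaging 199.5 ± 37.03 in round spermatids and 61.3 ± 13.05 in pachytene spermatocytes (SD, n = 4 each). Ift81 had 648, 601, 800.3 and 737 in round spermatids, against 279, 290.2, 285 and 321 in pachytene spermatocytes, 2.34-fold (limma adjusted p = 1.56e-07), a call that its second probe set (log2 0.25, adjusted p = 0.154) did not give.

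Among the 12 genes that were lower in round spermatids, Dync1li2 had 176, 133, 156 and 137 in round spermatids, against 1034, 908, 959 and 1044 in pachytene spermatocytes, 6.41-fold lower (log2 -2.68 ± 0.10 SE, limma adjusted p = 1.34e-12). Dnaaf10, a cochaperone of dynein arm assembly, had 6.49, 8.35, 4.84 and 8.07 in round spermatids, against 70.1, 58.5, 49.01 and 65.2 in pachytene spermatocytes, a log2 change of -2.45 ± 0.23 SE (limma adjusted p = 6.83e-08). Its round spermatid signals were near the table's 10th percentile and not shown to lie above background, and the log2 change was -2.97 with log2(signal + 1) and -1.74 with log2(signal + 16). Bbs1 had 491, 284, 412 and 358 in round spermatids, against 1008, 1071, 1050.3 and 1043 in pachytene spermatocytes, 2.73-fold lower. The others were Ift70a1 (2.73-fold), Bbs7 (2.46-fold), Ift140 (2.32-fold), Ift20 (2.28-fold), Ift25 (2.22-fold), Dync1i2 (2.16-fold), Bbs9 (2.16-fold), Dnah2 (2.14-fold) and Dnah1 (2.08-fold), the last with 316, 264, 265 and 282 in round spermatids, against 635, 599.8, 537 and 592 in pachytene spermatocytes. Ift25 was called with neither quantile normalization (log2 -0.88) nor its second probe set (log2 -0.72). Among the axonemal and assembly genes not called, Dnah17 had a log2 change of -0.34 ± 0.28 SE and Dnaaf1 of 0.11 ± 0.14 SE.

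The stage profiles and the germ cell difference come from different samples. They ran alongside each other in the 54 genes, as they did over all probe sets. Of the 12 genes lower in round spermatids, 8 were stage-regulated, and they were 8 of the 36 stage-regulated genes. All 8 were highest at stages IX-XI to I, as were 22 of the 36. Over all probe sets, 1492 of the 2660 lower in round spermatids were stage-regulated, and 75.2% of these were highest at stages IX-XI to I, against 42.5% of all stage-regulated probe sets. Across the 54 genes, the log2 difference between tubules of stages IV-V to VIIa.b and those of stages XII to I had a Pearson correlation of 0.55 and a Spearman correlation of 0.65 with the difference between round spermatids and pachytene spermatocytes. Over 18809 probe sets tested in both, these were 0.53 and 0.45. Genes are not independent replicates, and no test was made. Dynlt5 and Dynll2 stood off this relation, and were highest at stages VIII and IX-XI, outside both sets of stages. Dnaaf10 was off it too, lower in round spermatids with no call over the stages.

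**Figure D3:**
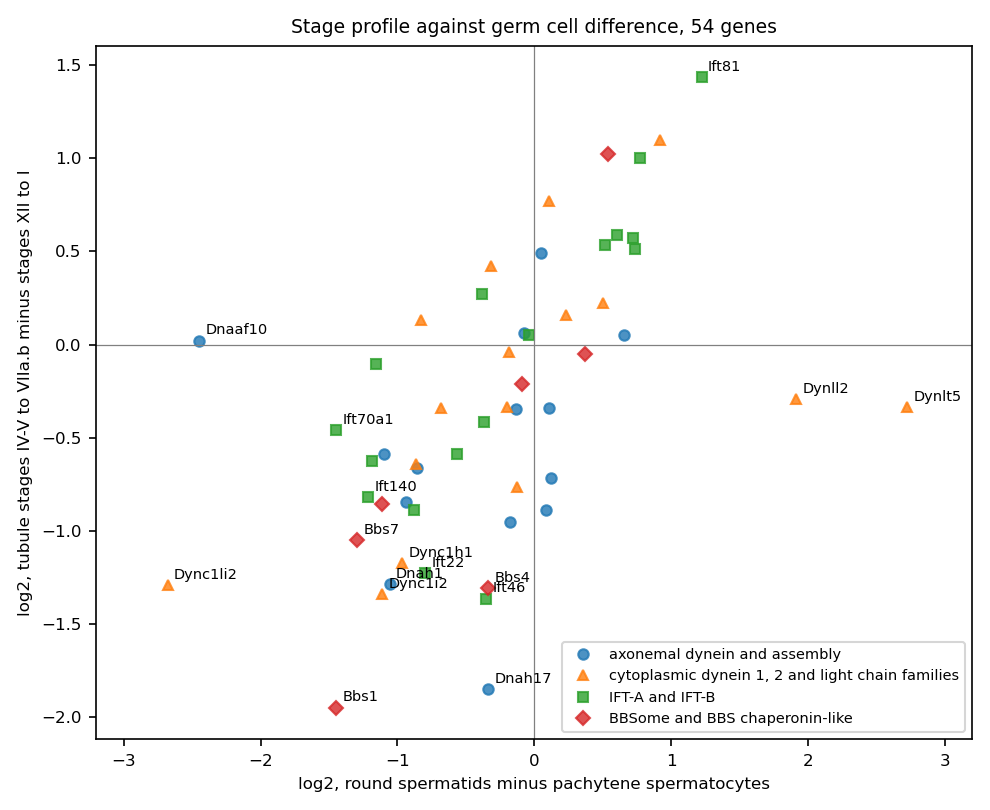
Each of the 54 genes by its log2 difference between round spermatids and pachytene spermatocytes (horizontal axis) and between tubules of stages IV-V to VIIa.b and of stages XII to I (vertical axis); marker shapes give the kind of gene, and genes with large differences are named. Bbs1, Bbs7 and Dync1li2 are low on both axes and Ift81 high on both, while Dynlt5 and Dynll2 lie to the right with little difference between these stages.

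In Sertoli cells, the somatic cells of the tubule, 32 of the 54 genes were lower than the mean of the 3 germ cell groups, where 29.7% of all probe sets were lower, and 4 were higher, where 24.1% were higher. The germ cell mean here and below is that of the log2 group means, not of the signals. With 1 probe set per gene the shares over all genes were 29% lower and 23.9% higher. The median log2 difference was -1.17 over the 54 genes and -0.15 over all tested probe sets. When every array was scaled to the same median signal, the median of all probe sets in this comparison moved to 0.19, that of the 54 genes to -0.84 and the number of lower genes to 23. In 10 of the 32 lower genes and 3 of the 4 higher ones, the Sertoli samples did not overlap with any germ cell sample. The share over all called probe sets was not counted here either. The germ cell samples are those of the comparisons above. In the other 22 lower genes the overlap was with spermatogonia plus early spermatocytes alone, as in Dnaaf8, with 80.01, 76.7, 79.00 and 66.1 in Sertoli cells, against 78.1, 70.3 and 81.97 in spermatogonia plus early spermatocytes, 1333, 1083, 1169 and 1452 in pachytene spermatocytes and 1433, 1323, 1311 and 1400.2 in round spermatids. Dnaaf8 was 6.47-fold lower than the germ cell mean (limma adjusted p = 3.05e-14).

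All 8 axonemal dynein chains were lower in Sertoli cells, from 2.71-fold for Dnai7 to 5.59-fold for Dnali1. Dnah7, whose Sertoli samples lay below all germ cell samples, had 40.1, 46.4, 39.8 and 34.95 in Sertoli cells, against 56.9, 65.3 and 88.2 in spermatogonia plus early spermatocytes, 380.4, 372, 289 and 368 in pachytene spermatocytes and 314, 347, 335 and 334 in round spermatids. Dnah1 and Dnah2 were 4.94 and 4.67-fold lower. Bbs12 was 6.62-fold lower, at signals of 9.20, 9.21, 5.02 and 2.43 in Sertoli cells (log2 -2.06 with log2(signal + 16)), with a wide spread in spermatogonia plus early spermatocytes (8.32, 3.58 and 37.9). All 4 dynein 2 chains and 10 of 14 IFT-B subunits were lower, among them Dync2li1 (3.77-fold) and Ift74 (4.55-fold), both with no overlap. Only Ift43 of the IFT-A subunits and Bbs1 and Bbs7 of the BBSome were. None of the 5 dynein 1 chains was called lower.

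The genes higher in Sertoli cells were Dync1i1, Dnaaf10, Dynlrb1 and Dynlt3. Dync1i1 had 240.2, 211, 196 and 162 in Sertoli cells, against 23.3, 40.2 and 50.7 in spermatogonia plus early spermatocytes, 29.2, 20.9, 38.1 and 29.1 in pachytene spermatocytes and 16.05, 26.9, 18.2 and 29.5 in round spermatids. The Sertoli samples were above all germ cell samples, 6.10-fold over the germ cell mean (log2 2.61 ± 0.20 SE, limma adjusted p = 1.07e-09), while its paralog Dync1i2 had a log2 difference of -0.62 ± 0.09 SE. Dnaaf10 had 200.2, 204, 272 and 159 in Sertoli cells, 5.10-fold over the germ cell mean (limma adjusted p = 2.95e-09), also without overlap. Dynlrb1 had 565, 634, 670.2 and 683 in Sertoli cells, 4.50-fold over the germ cell mean (limma adjusted p = 4.08e-13), and the early germ cells came next. Its paralog Dynlrb2 had 143, 157, 146 and 127 in Sertoli cells and was 5.60-fold lower (limma adjusted p = 5.7e-13). Dynlt3 had 109, 115, 116 and 166 in Sertoli cells, 2.33-fold over the germ cell mean, but its Sertoli samples lay below the early germ cells but for the one numbered 4, which was level with the lowest of them. Dynlt5 was 4.16-fold lower and Dynlt2b 2.90-fold lower, and Dynlt1 had a log2 difference of -0.44 ± 0.12 SE. Dynll2 was 2.21-fold lower on the chosen probe set, a call lost without the Sertoli sample numbered 4 (log2 -0.98), and its other probe set was higher in Sertoli cells, with 987, 1167, 1059 and 858 (log2 2.37 over the germ cell mean).

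Between whole testis and the mean of the 10 stage groups, 1 of the 54 genes differed by 2-fold or more. Dnah17 was the 1 gene called higher, where 2.31% of all probe sets were higher, and 0 were called lower by limma, where 1.2% of all probe sets were lower. With 1 probe set per gene the shares over all genes were 2.38% and 0.853%. At an adjusted p under 0.05, whatever the fold, 13 genes were higher and 8 lower. The counts over all 22504 probe sets tested are given below, with no minimum fold. At an unadjusted p under 0.05, 16 genes were higher and 10 lower, and the share over all probe sets was not counted. Dnah17 had 79.7, 70.00, 62.3, 99.6 and 42.96 in whole testis, against a mean signal of 44.5 over the stage means. Over the mean of the log2 stage means it was 2.26-fold higher (log2 1.18 ± 0.31 SE, limma adjusted p = 0.00271). That fold is larger than the ratio of these mean signals. Its whole testis samples overlapped with tubule samples, and with log2(signal + 16) the change was 0.83 and not called. The median log2 change was 0.05 over the 54 genes and -0.05 over all tested probe sets. Of the paralogs, Dynlrb1 had a log2 change of 0.28 ± 0.10 SE and Dync1i1 of 0.48 ± 0.19 SE, both under 2-fold.

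Other genes related to these structures were described from lists of their symbols, for which the shares over all probe sets are those above: 32.5% stage-regulated, 18.5% higher in pachytene spermatocytes and 29.7% lower in Sertoli cells. Of 11 measured genes of the nexin link, the docking complex and the tektins, 8 were stage-regulated, and all 11 were higher in pachytene spermatocytes than in spermatogonia plus early spermatocytes and lower in Sertoli cells than in germ cells. Tekt5 and Tekt4, filament proteins inside axonemal microtubules, had the largest stage ranges. Tekt5 averaged 917 ± 75.02 at stage VIIc.d and 7.65 ± 7.03 at stage I (SD, n = 5 each; limma adjusted p = 1.46e-28). The stage I level was near the table's 10th percentile, so that no fold is given. Tekt4 varied 8.35-fold with its highest mean at stage VI. Of 8 radial spoke and central apparatus genes, 3 were stage-regulated, with Rsph6a (3.88-fold) and Rsph3 (3.07-fold) first, all 8 were higher in pachytene spermatocytes and 7 were lower in Sertoli cells. Of 10 further genes listed with IFT and BBS under other symbols, not all of them subunits, 7 were stage-regulated, led by Trim32 (2.81-fold) and Lztfl1 (2.80-fold). In pachytene spermatocytes, 3 of the 10 were higher. Of 4 kinesin-2 genes, the motors of outward transport, Kif3a (2.84-fold) and Kif3b (2.79-fold) were stage-regulated, both highest at stage I. Of 13 dynactin and dynein regulator genes, 12 were tested over the stages and 5 were stage-regulated, with Bicd2 (4.58-fold) and Dctn5 (3.99-fold) first.

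Of 6 measured transcription regulators of ciliary genes, 4 were stage-regulated. Foxj1, which drives motile cilium genes, averaged 1050.2 ± 104 at stage VI and 98.2 ± 33.5 at stage XII (SD, n = 5 each), 10.6-fold (limma adjusted p = 5.45e-26). Rfx1, of the family that binds X-boxes, averaged 1101 ± 101 at stage IV-V (SD, n = 4) and 107 ± 25.1 at stage XIII-XIV (SD, n = 5), 10.01-fold (limma adjusted p = 2.9e-28). In round spermatids against pachytene spermatocytes, Foxj1 was higher by 2.62 on the log2 scale and Rfx1 by 2.90 (limma adjusted p = 1.1e-08 and 7.32e-12). Crem, a transcription regulator of spermatids, was also highest at stage IV-V and lowest at stage XII (3.41-fold), and was called higher in round spermatids than in pachytene spermatocytes. Rfx4 ran the other way, highest at stage XII (311 ± 43.7) and lowest at stage VIIc.d (51.3 ± 24.3; SD, n = 5 each), 6.05-fold (limma adjusted p = 1.86e-13), with a log2 change of -1.25 in round spermatids against pachytene spermatocytes. Rfx2 was highest at stage I (1.87-fold over the lowest stage) and Rfx3 did not pass the F-test (adjusted p = 0.089), and neither was called over the stages. Rfx2 was called higher in pachytene spermatocytes than in spermatogonia plus early spermatocytes (log2 3.26, limma adjusted p = 3.58e-14). It was lower in Sertoli cells than the germ cell mean (log2 -2.60), and Rfx3 was not tested in the isolated cells.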

How the data were processed

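The authors deposited 1 signal intensity per probe set and array, made with MAS5 per the submitters' processing notes (version not given in the sources used here); in the values, each array had been scaled to a 2% trimmed mean of 100. Without detection calls, whether a weak signal exceeded background is not known. Leaving out 57 control probe sets gave 31042. Symbols came from the platform's table; 20826 probe sets had 1 symbol, 436 several and 9780 none. No probe set matched the rule only after its symbol was updated through RefSeq's gene table (GRCr8). The genes and lists were chosen with earlier results of these data known.

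Signals were tested as log2(signal + 5.11), where 5.11 is their 10th percentile, with limma 3.58.1 (eBayes with trend) under R 4.3.3, and read with the data.table package (version 1.17.8); Python 3.11.15, pandas 2.3.3 and matplotlib 3.10.9 were used for the promoter search and the figures. Probe sets above 43.7, the table's median, in at least 3 samples of a fit were tested, with two-sided tests and Benjamini-Hochberg adjustment over all of them. The fits were the 10 stages, the isolated cells, and whole testis with the stages. The stage, cell and whole testis comparisons were tested on simulated data. Alternatives were other pseudocounts, filters, scalings and fold limits, a second probe set, the replicate number as a block, and leaving out samples. Each tubule sample pooled 2 rats per the labels, which do not say whether samples of different stages came from the same rats. In all groups, p-values measure only the spread between these samples. Precision is limited by having 3 to 5 arrays a group. Genes were named by a fixed rule: the 15 largest stage ranges, the gene with the highest tubule mean in each role, up to 8 per direction in each contrast, and the paralogs. Others are named to account for all 54. Proteins were not printed.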

Additional observations from a re-analysis of the deposited data

Results flagged for a closer look

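In groups of 4 or 5 samples, the highest or lowest sample of a named gene was set against the others, and 11 of 133 gene and group pairs had 1 sample farther off than Dixon's critical value allows; chance alone marks about 1 in 20 groups.

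Among tubules, Dynll2 at stage II-III was 3318 in the sample numbered 4, against 2206 to 2373 in the others. Dync1h1 at stage VI was 443 in the sample numbered 5, against 319 to 337 in the others. Dnai1 at stage I was 319 in the sample numbered 1, against 517 to 590 in the others. In round spermatids, Dynlrb1 was 63.3 in the sample numbered 3 (46.4 to 47.9 in the others) and Dnali1 was 749.7 in the sample numbered 1 (643 to 661 in the others). In pachytene spermatocytes, Dnah7 was 289 in the sample numbered 3 (368 to 380.4 in the others) and Ift74 was 1110.1 in the sample numbered 4 (899.5 to 935 in the others). In Sertoli cells, Dynlt3 was 166 in the sample numbered 4 (109 to 116 in the others) and Ift74 was 100.1 in the sample numbered 3 (155 to 162 in the others). In whole testis, Dync1i1 was 124 in the sample numbered 2 (81.4 to 87.5 in the others) and Dynlt3 was 69.5 in the sample numbered 5 (42.2 to 46.5 in the others). Of these, leaving out the sample changed the call for Dnai1, as given above.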

How the results depend on the processing

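With no minimum fold, the genes called in round spermatids against pachytene spermatocytes numbered 12 higher and 24 lower, and in whole testis 13 higher and 8 lower, since the rule then takes smaller changes; with log2(signal + 16) 0 genes were higher in whole testis, and the cause was not tested. Over all probe sets, no minimum fold gave 12090 stage-regulated (7240 with it), 3431 higher and 5506 lower in round spermatids (1802 and 2660 with it), 5692 higher in pachytene spermatocytes (3749 with it), 7659 higher and 9065 lower in Sertoli cells (4886 and 6014 with it), and 3424 higher and 3913 lower in whole testis (520 and 269 with it). The whole testis counts were 324 higher and 56 lower with log2(signal + 16), 256 and 115 with the filter on the mean signal, and 575 lower with log2(signal + 1), 428 without the whole testis sample numbered 2 and 424 without that numbered 4. With the second probe set, 30 genes were stage-regulated and Dynll2 reversed, with log2 differences of -0.69 over the stages, -3.14 in pachytene against early germ cells and 2.37 in Sertoli against germ cells; the cause was not tested. With the arrays scaled to the same median, the median of all probe sets was 0.22 in pachytene against early germ cells, against -0.15 in the main setting, 45 genes were higher there and 23 lower in Sertoli cells. Leaving out 1 sample gave 34 to 37 stage-regulated genes, 3 to 3 higher and 12 to 13 lower in round spermatids, 40 to 42 higher and 2 to 3 lower in pachytene spermatocytes, 4 to 4 higher and 31 to 32 lower in Sertoli cells, and 1 to 1 higher and 0 to 0 lower in whole testis. Of 2138 values of named genes with 1 sample left out, 2128 kept direction and call. Deviations from the group means correlated over 0.1 in 66 of 216 same-numbered stage pairs, against 30 of 864 with different numbers, and in 5 of 21 same-numbered cell pairs, against 2 of 63. Same-numbered samples thus shared deviations more often, but not in every pair, and the labels state no shared source, so that pairing was not assumed. The fit with the replicate number as a block gave 36 stage-regulated genes and 41 higher in pachytene spermatocytes, where Dync1i2 was lost, and the same counts otherwise. Without the samples with high actin 3' to 5' ratios, 37 genes were stage-regulated and 41 higher and 3 lower in pachytene spermatocytes. Weak signals near the array's lower limit, as those of Dnah17, Dynlt5 and Bbs12 in early germ cells, limit their fold changes most.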

Other observations

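Of the 54 genes, 6 were called in none of the contrasts between isolated cells: Bbs2, Bbs5, Dnaaf9, Dync1h1, Dync1li1 and Ift52. The share of all probe sets called in none was not counted. All but Ift52 were stage-regulated. Ift52, a core IFT-B subunit, averaged 189 ± 16.2 in Sertoli cells (SD, n = 4), 203 ± 0.774 in spermatogonia plus early spermatocytes (SD, n = 3), 255 ± 14.6 in pachytene spermatocytes and 250.4 ± 34.9 in round spermatids (SD, n = 4 each).

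Probe sets of the same gene could be compared over the 15 group means for 14 genes. The first and second probe sets of Bbs1 (r = 0.99) and Ift46 (r = 0.98) ran alike, while those of Dynll2 (r = -0.43), Dync1li1 (r = -0.24), Dnal1 (r = -0.22) and Dnaaf9 (r = -0.06) did not. The second probe set of Dync1li1 had a mean of 5.48 over all samples, near the 10th percentile of the table.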
